A study of Mus musculus with 16 samples.

Results

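The 10 genes described here encode transcription factors that shape dendritic cells (DCs): the interferon regulatory factors *Irf2*, *Irf4*, *Irf5* and *Irf8*, the basic leucine zipper factors *Batf*, *Batf2* and *Batf3*, and *Id2*, *Spi1* and *Zbtb46*. They were chosen by name and all 10 were found among the 23356 genes of the deposited table, 9 under these symbols and *Spi1* under its older symbol *Sfpi1*. The RNA came from bone marrow-derived DCs (BMDCs), which are mouse bone marrow cells grown for 6 days with GM-CSF and IL-4, each at 10 ng/ml, of which the methods collected the floating and loosely attached cells. The mice were either wild-type or deleted in all cells for *Tmem173* (*Tmem173*-/-), for *Irf1* (*Irf1*-/-) or for both *Irf3* and *Irf7* (written *Irf3/7*-/-). All were on a C57BL/6 background, and the study's methods describe sex-matched young adults. Each genotype was left untreated or received c-di-GMP, a bacterial second messenger that activates STING, the product of *Tmem173*, for 18 h. The labels give a dose of 25 µg/ml and the paper's legends a higher one. The 16 samples were 2 per condition, and nothing in the labels says whether these came from separate mice or cultures.

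DC transcription factors act in a network. *Irf8* and *Batf3* are required for type 1 conventional DCs, which cross-present antigen to CD8+ T cells, whereas *Irf4* is linked with type 2 conventional DCs and with monocyte-derived DCs such as those grown with GM-CSF and IL-4. BATF family proteins pair with JUN proteins and, with IRF4 or IRF8, bind composite DNA elements that neither bind well alone. PU.1, the product of *Spi1*, drives myeloid development in general, *Id2* encodes an inhibitor of E proteins that limits the plasmacytoid DC fate, and *Zbtb46* marks the conventional DC lineage. STAT family proteins bind promoter elements with the core letters TTCNNNGAA, and IRF proteins bind repeats of GAAA.

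The authors combined the replicates of each condition with Cuffdiff, so each gene has a single value per condition, in FPKM (fragment counts divided by transcript length and by the library's mapped fragments), with the authors' 95% interval. There is therefore no SD and no n, no p-value is given, and the interval stands for the precision in what follows. The interval's width, divided by 2, was 23.1% to 36.5% of the FPKM for the 10 factors, and its median over 4710 genes that never fell under 10 FPKM was 25.2% to 25.7%. The bounds were not always symmetric, as the values of *Batf3* and *Id2* show. Some genes of the lists below even had a value above their own interval. Examples are *Cebpb* in treated wild-type BMDCs (240 FPKM, interval 115 to 207) and *S100a8* in untreated wild-type BMDCs (2531 FPKM, interval 1204 to 2169). Calls of such genes carry this limit. A gene was called higher or lower where it differed more than 2-fold after 0.1 FPKM was added to each value, the intervals did not overlap, at least 1 condition reached 1 FPKM and the status was OK in both. Standard errors (SE) of log2 differences were derived from the same intervals. The comparisons with wild type share the wild-type values and are given side by side. Of the deleted genes, *Tmem173* was at 8.97 and 7.49 FPKM in *Tmem173*-/- BMDCs, untreated and treated, against 77.0 to 118 FPKM elsewhere. *Irf1* was at 25.9 FPKM in untreated *Irf1*-/- BMDCs against 149 in wild type, and at 116 against 245 FPKM after c-di-GMP. Its interval in treated *Irf1*-/- BMDCs (82.8 to 149 FPKM) overlapped that of untreated wild type (113 to 185 FPKM). Gene-level FPKM does not show which part of a transcript was counted, and the source of this remaining *Irf1* signal was not tested. *Irf7* was lower in *Irf3/7*-/- BMDCs in both states (1.07 and 4.97 FPKM against 15.2 and 687 FPKM). *Irf3* was lower in untreated *Irf3/7*-/- BMDCs (7.74 against 19.9 FPKM) but reached 20.2 FPKM in the libraries labelled treated *Irf3/7*-/-, against 15.8 FPKM in treated wild-type BMDCs. Because *Irf3* thus went against the label there, that condition is called by its label below, and each direction drawn from it carries this limit.

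On GRCm38, the GENCODE annotation places *Irf8* on chromosome 8 from 120736358 to 120756694, *Irf2* on chromosome 8 from 46739732 to 46847458, *Irf4* on chromosome 13 from 30749226 to 30766976 and *Irf5* on chromosome 6 from 29526625 to 29541871. *Batf* and *Id2* lie on chromosome 12 (85686669 to 85709087 and 25093799 to 25097140), *Batf2* on chromosome 19 (6140983 to 6172476), *Batf3* on chromosome 1 (191097847 to 191108945), and *Spi1* and *Zbtb46* on chromosome 2 (91082390 to 91115756 and 181387762 to 181459426). None of them overlapped another gene of the table. The table's own span starts later than the annotated gene for *Batf2* (at 6164457) and *Spi1* (at 91096796). Promoter sequences of the factors were read first, to look for STAT and IRF elements among others. RefSeq promoter entries (build GRCm38.p6) were at hand for 8 of the 10 factors, with none for *Batf2* and *Spi1*. Shown 5′ to 3′ are the 250 bases before the annotated start of *Irf8*, the factor whose wild-type response to c-di-GMP was largest, of its relative *Irf4*, and of *Irf2*, whose level was nearly flat. Capitals mark matches to 4 motifs searched on both strands, IRF-type (GAAANNGAA), STAT-type (TTCNNNGAA, which reads the same on both strands), AP-1-type (TGANTCA) and PU.1-type (GAGGAA), and all 3 genes lie on the plus strand.
Irf8, chr8:120736108-120736357: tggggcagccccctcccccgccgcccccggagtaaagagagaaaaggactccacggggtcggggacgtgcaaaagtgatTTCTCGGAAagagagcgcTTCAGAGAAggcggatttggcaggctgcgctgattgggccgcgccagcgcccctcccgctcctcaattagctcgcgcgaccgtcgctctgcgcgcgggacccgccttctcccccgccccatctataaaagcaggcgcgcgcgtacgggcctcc
Irf4, chr13:30748983-30749232: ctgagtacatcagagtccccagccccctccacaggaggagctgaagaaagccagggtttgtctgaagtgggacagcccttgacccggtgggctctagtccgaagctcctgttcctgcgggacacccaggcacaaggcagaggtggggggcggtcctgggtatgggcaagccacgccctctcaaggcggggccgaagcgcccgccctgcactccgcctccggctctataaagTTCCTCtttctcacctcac
Irf2, chr8:46739495-46739744: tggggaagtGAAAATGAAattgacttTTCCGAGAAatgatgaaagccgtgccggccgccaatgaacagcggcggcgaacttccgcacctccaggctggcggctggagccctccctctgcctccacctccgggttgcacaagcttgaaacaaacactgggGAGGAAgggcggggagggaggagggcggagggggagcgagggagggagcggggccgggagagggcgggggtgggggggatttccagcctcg

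The *Irf8* window held 2 STAT-type matches, TTCTCGGAA from base -171 to -163 and TTCAGAGAA from -153 to -145 before the start, and none of the other 3 motifs. *Irf4* held a PU.1-type match on the minus strand, read as TTCCTC, from -19 to -14. *Irf2* held an IRF-type match from -241 to -233, a STAT-type match from -224 to -216 and a PU.1-type match from -91 to -86. *Batf3* also held a STAT-type match (TTCCACGAA, -239 to -231) and a PU.1-type match (-153 to -148), in a window that is partly an annotated exon and is not printed. *Zbtb46* held an AP-1-type match (TGACTCA, -61 to -55), before a start that lies inside its annotated span. The *Irf5*, *Batf* and *Id2* windows and a later *Irf8* start held none of the 4. The *Id2* window (25096093 to 25096342) also lies inside the annotated span of its gene. Among 32851 promoter windows of the same length, 7.13% held the IRF-type, 7.02% the STAT-type, 6.75% the AP-1-type and 23.25% the PU.1-type motif. A match is a run of letters and not a measured site, and no match says only that these letters are not in this window. Both an IRF-type and a STAT-type match stood before *Irf2*, whose level was nearly flat across the conditions, and the function of neither was tested.

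All 10 factors were well above 1 FPKM in every condition, the lowest value being *Batf2* at 2.59 FPKM in untreated *Irf1*-/- BMDCs. By FPKM, which is scaled to transcript length, *Irf5* was the most abundant in untreated wild-type BMDCs (342 FPKM), followed by *Spi1* (210), *Id2* (202), *Irf4* (133) and *Batf3* (126), then *Irf8* (55.5), *Irf2* (51.1), *Batf2* (29.1), *Batf* (28.9) and *Zbtb46* (17.6). After c-di-GMP *Irf8* stood second in wild-type BMDCs at 303 FPKM, behind *Irf5* at 368 FPKM. In *Tmem173*-/- BMDCs *Id2* ranked first in both states, at 400 and 411 FPKM. The highest and lowest of the 8 conditions lay more than 2-fold apart for 7 of the 10 factors, beside 50.3% of 11811 genes. The median of this log2 range was 1.63 for the factors and 1.005 for all genes.

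**Figure D1:**
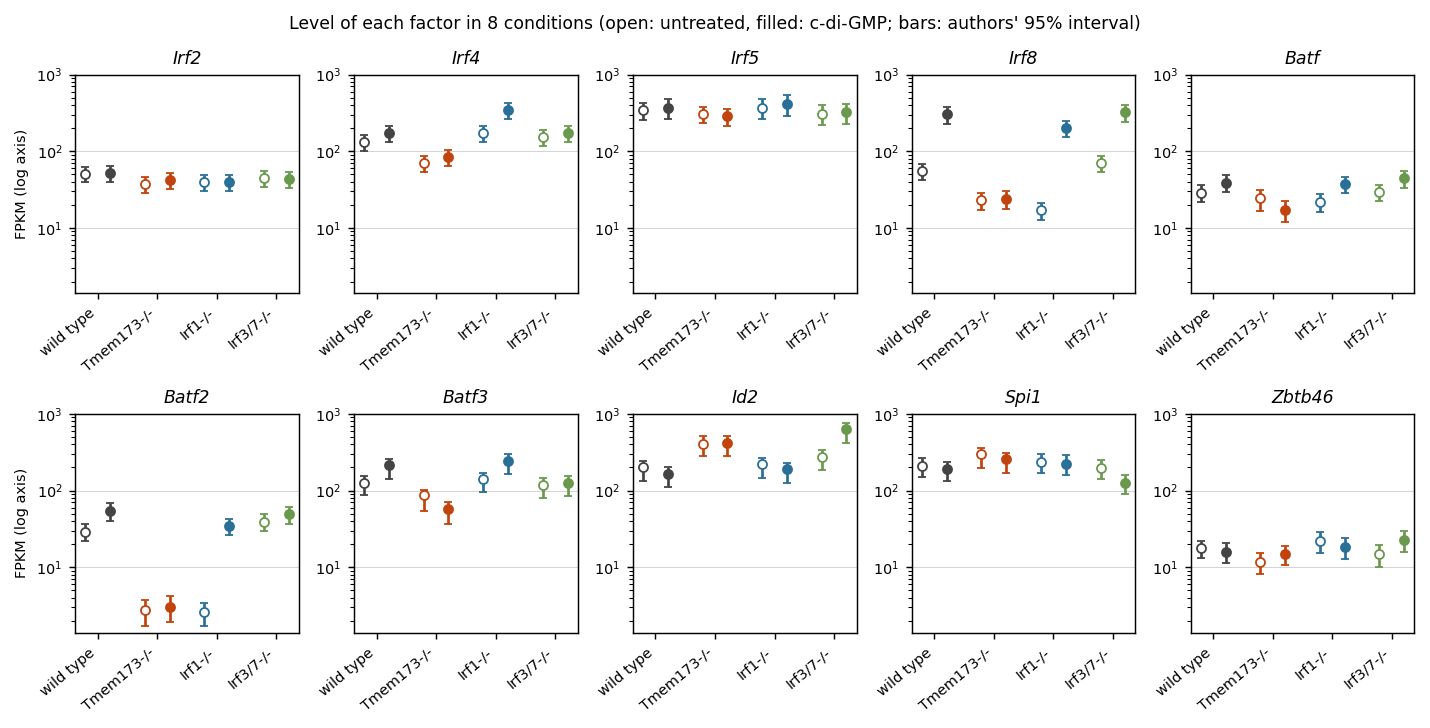
FPKM of each of the 10 factors (log axis) in untreated (open circles) and c-di-GMP-treated (filled circles) BMDCs of 4 genotypes, with the authors' 95% intervals as bars. *Irf8* and *Batf2* span the widest range, from 17.0 to 322 FPKM and from 2.59 to 54.5 FPKM, while *Irf2* and *Irf5* stay nearly level.

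*Irf8* rose with c-di-GMP in every genotype except *Tmem173*-/-. Its level was 55.5 FPKM (interval 42.3 to 68.7) in untreated and 303 FPKM (227 to 379) in treated wild-type BMDCs. In *Tmem173*-/- BMDCs it was 23.1 FPKM (17.0 to 28.8) untreated and 24.2 FPKM (17.8 to 30.4) treated. In *Irf1*-/- BMDCs it went from 17.0 FPKM (12.9 to 21.2) to 201 FPKM (151 to 249), and in *Irf3/7*-/- BMDCs from 69.8 FPKM (52.9 to 86.6) to 322 FPKM (243 to 401) under the treated label. The treated wild-type, *Irf1*-/- and *Irf3/7*-/- values stood above all the others without overlap, and their own intervals overlapped from 1 to the next. Untreated wild-type and *Irf3/7*-/- BMDCs came next, and below them, apart from wild type, lay treated and untreated *Tmem173*-/- and untreated *Irf1*-/- BMDCs, whose intervals overlapped one another.

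The log2 response of *Irf8* was 2.44 in wild-type BMDCs (SE 0.25, 5.44-fold), where it was the only one of the 10 factors called higher, beside 10.5% of the genes tested. It was 0.06 (SE 0.27) in *Tmem173*-/- BMDCs, where none of the factors was called in either direction, beside 0.0552% of genes. In *Irf1*-/- BMDCs the response was 3.55 (SE 0.25), with *Irf8* and *Batf2* called higher beside 9.67% of genes. In *Irf3/7*-/- BMDCs it was 2.21 (SE 0.25), with *Irf8* and *Id2* called higher beside 10.2% of genes, a comparison that rests on the libraries labelled treated *Irf3/7*-/-. Taken against the wild-type response, the response in *Tmem173*-/- BMDCs was lower by a log2 difference of -2.38 (95% interval -3.10 to -1.66), a difference called because it exceeded 1 log2 unit and its 95% interval left out 0, as for 10.9% of genes in this direction. The *Irf1*-/- response was greater than that of wild type by 1.11 (0.40 to 1.81), which 2.55% of genes passed upward. That greater response started from a lower level, 17.0 against 55.5 FPKM. After treatment *Irf1*-/- BMDCs had 201 FPKM and wild-type BMDCs 303 FPKM (log2 difference -0.59, SE 0.26, intervals overlapping). The *Irf3/7*-/- response differed from wild type by -0.24, with an interval from -0.94 to 0.47.

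Without treatment, *Irf8* was lower in *Tmem173*-/- (log2 difference -1.26, SE 0.26) and in *Irf1*-/- (-1.70, SE 0.25) than in wild-type BMDCs. *Batf2* was lower with it in both comparisons, and these were the only factors called lower, 2 of 10 beside 5.95% of genes for *Tmem173*-/- and 2 of 10 beside 3.52% for *Irf1*-/-. None of the factors was called in untreated *Irf3/7*-/- against untreated wild-type BMDCs, beside 2.04% of genes in either direction. In this comparison *Irf8* was 0.33 higher on the log2 scale (SE 0.25) and *Batf2* 0.44 higher (SE 0.26), with overlapping intervals.

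*Irf4*, which encodes the closest relative of IRF8, followed another pattern. Its levels were 133 FPKM (102 to 164) and 173 FPKM (132 to 214) in untreated and treated wild-type BMDCs, and 70.4 FPKM (53.8 to 87.0) and 84.2 FPKM (64.7 to 104) in *Tmem173*-/- BMDCs. They were 174 FPKM (134 to 215) and 345 FPKM (262 to 429) in *Irf1*-/- BMDCs, and 155 FPKM (119 to 191) and 172 FPKM (132 to 212) in *Irf3/7*-/- BMDCs. Treated *Irf1*-/- BMDCs stood alone at the top, apart from the next value, and the *Tmem173*-/- values were the lowest. The rise within *Irf1*-/- BMDCs (log2 0.985, SE 0.25) and the excess of treated *Irf1*-/- over treated wild-type BMDCs (0.996, SE 0.25) both had intervals apart and lay just under the 2-fold threshold. The excess over the libraries labelled treated *Irf3/7*-/- (1.004, SE 0.25) lay just above it, making *Irf4* the only factor called higher there, beside 3.22% of genes. Median centring brought this difference to 0.98 and ended the call. In treated *Irf1*-/- against treated wild-type BMDCs no factor was called, beside 7.56% of genes in either direction. The wild-type response of *Irf4* was 0.38 (SE 0.24), and the *Irf1*-/- response exceeded it by 0.60, with an interval from -0.08 to 1.29 that includes no difference.

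The ratio of *Irf4* to *Irf8* differed widely between conditions. *Irf4* stood at 2.39 times *Irf8* in untreated wild-type BMDCs and at 0.572 times after c-di-GMP. The ratio was 3.04 and 3.48 in untreated and treated *Tmem173*-/- BMDCs. It was 10.2 in untreated and 1.72 in treated *Irf1*-/- BMDCs, and 2.22 and 0.534 in *Irf3/7*-/- BMDCs. *Irf8* exceeded *Irf4* in FPKM only under the labels treated wild type and treated *Irf3/7*-/-.

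*Irf5*, a mediator of inflammatory cytokine induction downstream of Toll-like receptors, and *Irf2*, which can oppose IRF1 at shared DNA elements, were the flattest. *Irf5* ran from 286 FPKM (214 to 357) in treated *Tmem173*-/- to 411 FPKM (292 to 534) in treated *Irf1*-/- BMDCs. *Irf2* ran from 37.5 FPKM (28.7 to 46.2) in untreated *Tmem173*-/- to 51.5 FPKM (39.5 to 63.4) in treated wild-type BMDCs. For both genes even the highest and lowest conditions had overlapping intervals, a range of 1.44-fold for *Irf5* and 1.37-fold for *Irf2*. Of all genes, 16.9% had a smaller range than *Irf5* and 12.0% a smaller one than *Irf2*.

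The other IRF genes behaved differently from one another as well. Of the 4 tested in wild-type BMDCs (*Irf1*, *Irf3*, *Irf7* and *Irf9*) 1 was called higher with c-di-GMP, beside 10.5% of genes. This was *Irf7*, with a log2 response of 5.49 (SE 0.26). The median log2 response of these 4 genes was 0.73, against 0.00 for all genes and 0.24 for the 10 factors. In *Irf1*-/- BMDCs *Irf7* (7.26, SE 0.30) and *Irf9* (1.25, SE 0.29), which encodes the DNA-binding subunit of the type I interferon-activated complex, were called higher, and so was *Irf1* transcript itself (2.15, SE 0.29). In untreated *Tmem173*-/- BMDCs *Irf1* stood at 24.1 FPKM, close to its 25.9 FPKM in untreated *Irf1*-/- BMDCs.

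Among the BATF genes *Batf2* moved the most. BATF2 is induced by interferons in myeloid cells and can take the place of BATF3 in some settings. Its levels were 29.1 FPKM (21.9 to 36.2) and 54.5 FPKM (40.6 to 67.8) in untreated and treated wild-type BMDCs, and 2.75 FPKM (1.74 to 3.74) and 3.06 FPKM (1.94 to 4.18) in *Tmem173*-/- BMDCs. They were 2.59 FPKM (1.71 to 3.45) and 34.6 FPKM (26.1 to 42.9) in *Irf1*-/- BMDCs, and 39.4 FPKM (29.6 to 49.2) and 49.2 FPKM (37.1 to 61.1) in *Irf3/7*-/- BMDCs. The values fell into 5 high conditions and 3 low ones with a gap between 29.1 and 3.06 FPKM, and no other neighbours in the order were apart. Untreated, *Batf2* was lower than in wild-type BMDCs by a log2 difference of -3.36 (SE 0.32) in *Tmem173*-/- and of -3.44 (SE 0.30) in *Irf1*-/- BMDCs.

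The *Batf2* response was 0.90 (SE 0.26) in wild-type BMDCs, with intervals apart but under 2-fold, and 3.69 (SE 0.30) in *Irf1*-/- BMDCs. The difference between these responses was 2.78 (2.01 to 3.55). As with *Irf8*, the greater *Irf1*-/- response began at a lower level and ended no higher, at 34.6 against 54.5 FPKM (log2 difference -0.66, SE 0.26, intervals overlapping). The responses in *Tmem173*-/- (0.15, SE 0.37) and *Irf3/7*-/- BMDCs (0.32, SE 0.26) were not called, and neither difference from wild type passed the threshold (-0.75, interval -1.63 to 0.13, and -0.58, interval -1.29 to 0.13).

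*Batf3* was at 126 FPKM (87.4 to 156) and 213 FPKM (143 to 257) in untreated and treated wild-type BMDCs, at 88.0 FPKM (54.9 to 101) and 56.8 FPKM (36.1 to 69.9) in *Tmem173*-/-, at 140 FPKM (94.7 to 169) and 241 FPKM (165 to 296) in *Irf1*-/-, and at 119 FPKM (81.0 to 145) and 124 FPKM (86.0 to 154) in *Irf3/7*-/- BMDCs. No genotype's response was called on its own, with log2 values of 0.76 (SE 0.28), -0.63 (SE 0.29), 0.79 (SE 0.28) and 0.06 (SE 0.28) in that order. The *Tmem173*-/- response was nevertheless lower than the wild-type one by a called difference of -1.39 (-2.18 to -0.60). That of *Irf3/7*-/- differed by -0.70, with an interval from -1.47 to 0.08. *Batf3* in treated *Irf1*-/- BMDCs was 0.95 above the libraries labelled treated *Irf3/7*-/- on the log2 scale (SE 0.28), intervals apart but under 2-fold.

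*Batf*, which pairs with JUN and IRF4 in activated lymphocytes and DCs, was lower than *Batf3* in every condition and moved less. It ran from 17.3 FPKM (12.1 to 22.2) in treated *Tmem173*-/- BMDCs to 44.3 FPKM (33.7 to 54.9) in the libraries labelled treated *Irf3/7*-/-. In between were 21.7 FPKM (16.1 to 27.3) and 37.6 FPKM (28.8 to 46.5) in untreated and treated *Irf1*-/-, 24.3 FPKM (16.8 to 31.4) in untreated *Tmem173*-/-, 28.9 FPKM (21.9 to 35.9) and 39.1 FPKM (29.4 to 48.7) in untreated and treated wild-type, and 29.4 FPKM (22.2 to 36.5) in untreated *Irf3/7*-/- BMDCs. No neighbouring values in this order were apart. Its response in *Irf1*-/- BMDCs (0.79, SE 0.26) had intervals apart without reaching 2-fold.

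**Figure D2:**
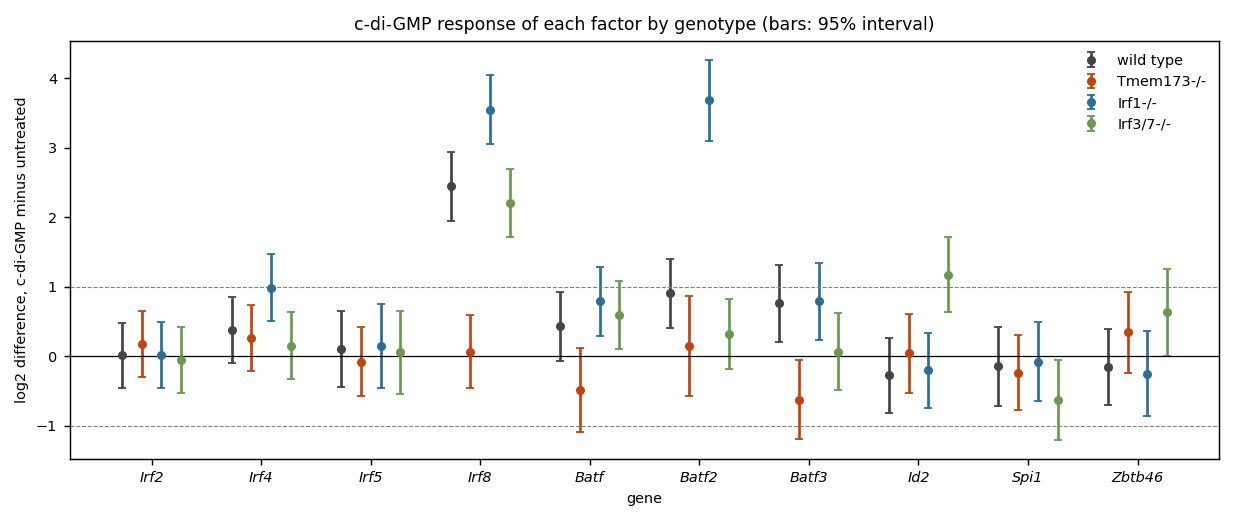
Log2 difference between c-di-GMP-treated and untreated BMDCs for each of the 10 factors (x axis), with 1 point for each of 4 genotypes and bars giving the 95% interval derived from the deposited bounds; dashed lines mark 2-fold. *Irf8* lies at 2.44, 3.55 and 2.21 in wild-type, *Irf1*-/- and *Irf3/7*-/- BMDCs and at 0.06 in *Tmem173*-/-, and *Id2* is above the line only in *Irf3/7*-/-, at 1.18.

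The widest set of calls came from treated *Tmem173*-/- against treated wild-type BMDCs. Of the factors, 5 were lower beside 13.5% of genes: *Batf2* (log2 difference -4.11, SE 0.32), *Irf8* (-3.64, SE 0.27), *Batf3* (-1.90, SE 0.29), *Batf* (-1.17, SE 0.28) and *Irf4* (-1.04, SE 0.24). *Id2* alone was higher (1.31, SE 0.28), beside 12.9% of genes. *Irf2* (-0.28), *Irf5* (-0.37), *Spi1* (0.44) and *Zbtb46* (-0.10) were not called. The median over the 10 factors was -0.70 and that over all genes 0.02. In bulk RNA of a mixed culture, fewer cells of a type and less RNA per cell cannot be told apart.

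**Figure D3:**
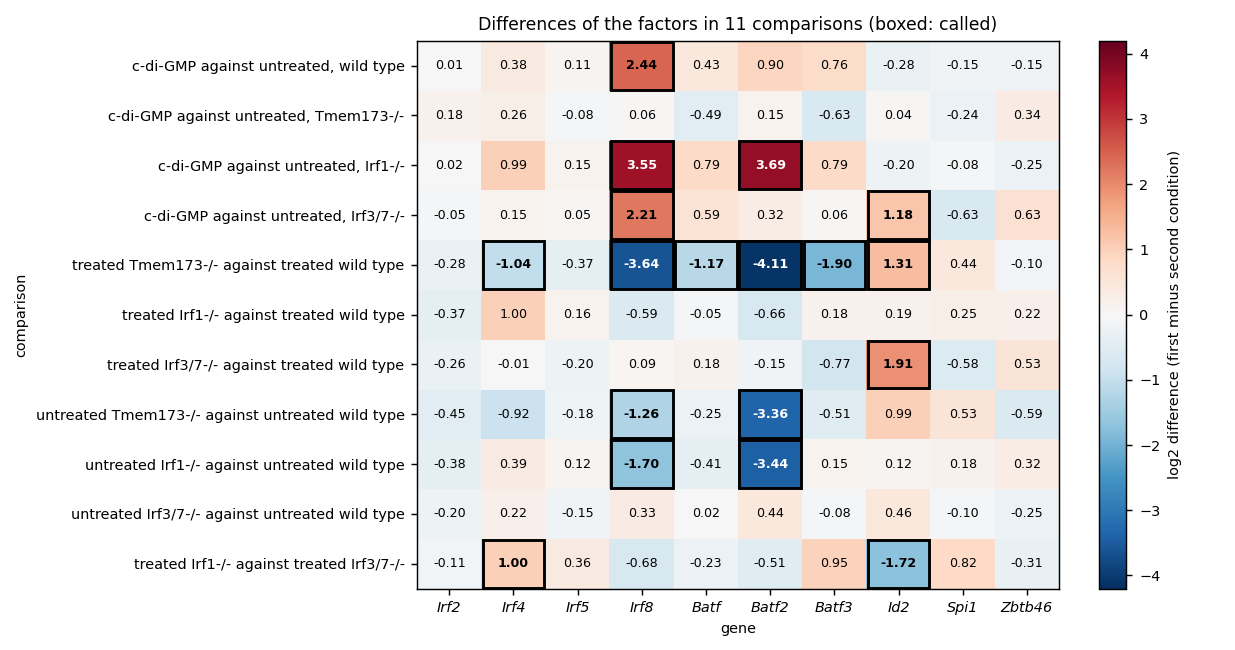
Log2 difference of each of the 10 factors (columns) in 11 comparisons (rows), first condition minus second, coloured from blue (lower) to red (higher), with called differences boxed. The row for treated *Tmem173*-/- against treated wild-type BMDCs holds 6 of the 18 boxes, and the row for c-di-GMP in *Tmem173*-/- BMDCs holds none.

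*Id2* had another order of levels, with treated wild type at the bottom. Its levels were 202 FPKM (135 to 242) and 166 FPKM (112 to 201) in untreated and treated wild-type BMDCs, 400 FPKM (283 to 510) and 411 FPKM (285 to 513) in *Tmem173*-/-, 219 FPKM (146 to 264) and 190 FPKM (127 to 229) in *Irf1*-/-, and 277 FPKM (186 to 333) and 625 FPKM (417 to 753) in *Irf3/7*-/- BMDCs. The libraries labelled treated *Irf3/7*-/- were highest, the *Tmem173*-/- values next, and wild-type and *Irf1*-/- BMDCs lowest, with no neighbouring pair in this order apart. The response in *Irf3/7*-/- BMDCs was 1.18 (SE 0.28) and exceeded that of wild type (-0.28, SE 0.28) by 1.45 (0.68 to 2.23), which 3.80% of genes passed upward. Against treated wild-type BMDCs the libraries labelled treated *Irf3/7*-/- had more *Id2* by 1.91 (SE 0.28), the only factor called there, beside 4.61% of genes called higher. Treated *Irf1*-/- BMDCs had less than those libraries by -1.72 (SE 0.28), the only factor called lower, beside 6.62% of genes. In untreated *Tmem173*-/- BMDCs *Id2* was 0.99 above wild type (SE 0.29), with intervals apart and just under 2-fold.

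*Spi1* went from 127 FPKM (91.0 to 162) in the libraries labelled treated *Irf3/7*-/- to 303 FPKM (197 to 355) in untreated *Tmem173*-/- BMDCs. The remaining values were 190 FPKM (133 to 238) and 210 FPKM (152 to 268) in treated and untreated wild-type, 196 FPKM (140 to 251) in untreated *Irf3/7*-/-, 225 FPKM (160 to 288) and 237 FPKM (167 to 300) in treated and untreated *Irf1*-/-, and 257 FPKM (170 to 305) in treated *Tmem173*-/- BMDCs. Those extremes were apart, no neighbouring values were, and *Spi1* was called in none of the 11 comparisons. *Zbtb46* was the least abundant in wild-type BMDCs, at 17.6 FPKM (13.3 to 21.9) untreated and 15.9 FPKM (11.2 to 20.5) treated. It lay between 11.6 FPKM (8.22 to 15.1) in untreated *Tmem173*-/- BMDCs and 23.0 FPKM (15.9 to 30.1) in the libraries labelled treated *Irf3/7*-/-, a range of 1.97-fold, and was never called.

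Across the 8 conditions, *Batf* and *Irf8* ran together (Pearson r = 0.94), as did *Batf2* and *Irf8* (0.90) and *Batf3* and *Irf5* (0.91). *Spi1* ran against *Irf8* (-0.76), *Batf2* (-0.76) and *Batf* (-0.75). These values describe 8 conditions in which each genotype occurs in 2, and carry no test. Among 7372 genes, the closest to *Irf8* in log2 FPKM were *Trafd1* (r = 0.995), *B2m* (0.99) and *Nampt* (0.99), the closest to *Batf2* were *Ifi47*, *Irf1* and *Irgm2* (each 0.99), and the closest to *Irf4* were *Ywhag* (0.99), *Nipa1* (0.98) and *Hsph1* (0.98). *Batf* was most like *Fbxo6* (0.99), *Batf3* like *Sys1* (0.99), *Spi1* like *Xbp1* (0.99) and *Id2* like *Txnrd1* (0.95).

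Genes that work beside these factors were described from fixed lists. Of the JUN genes that encode BATF partners, *Junb* rose in wild-type (log2 response 1.09, SE 0.28) and *Irf3/7*-/- BMDCs (1.42, SE 0.28), while *Jund* fell in wild-type (-1.03, SE 0.29) and *Irf1*-/- BMDCs (-1.13, SE 0.29). *Id3*, like *Id2* an E-protein inhibitor, fell in wild-type (-5.06, SE 0.47), *Irf1*-/- (-4.93, SE 0.47) and *Irf3/7*-/- BMDCs (-4.36, SE 0.42), the opposite of *Id2* in *Irf3/7*-/- BMDCs. In the list of 10 partners and relatives 1 was higher (beside 10.5% of all genes tested) and 3 lower (beside 9.96%) in wild-type BMDCs, with a median of -0.13, and none was called in *Tmem173*-/- BMDCs.

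Of 19 other DC transcription factors, 18 were tested in wild-type BMDCs, 4 were higher with c-di-GMP (*Klf4*, *Mycl1*, *Stat5a* and *Cebpb*) and 2 lower (*Cebpa* and *Spib*), with a median of 0.66. These counts stand beside 10.5% of all genes called higher and 9.96% called lower, so the 2 lower genes are near the background. *Mycl1*, a MYC family gene that supports conventional DCs and is itself linked with IRF8, rose by 3.07 (SE 0.27) in wild-type and by 2.13 (SE 0.27) in *Irf1*-/- BMDCs, and its response in *Irf3/7*-/- BMDCs (0.93, SE 0.29) was not called. *Spib*, which favours plasmacytoid DCs, had a log2 response of -2.82 (SE 0.32) in wild-type BMDCs. *Klf4*, a factor of monocytes and type 2 DCs, rose by 1.45 (SE 0.26) in wild-type BMDCs, whereas its response in *Irf1*-/- BMDCs was -2.49 (SE 0.28). No gene of this list was called in the c-di-GMP response of *Tmem173*-/- BMDCs, beside 0.0552% of genes. In treated *Tmem173*-/- against treated wild-type BMDCs 3 of 18 were higher, beside 12.9% of genes, and 7 lower, beside 13.5%. The 3 higher genes are thus near the background.

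Of 12 genes linked with these factors in DCs, 10 were tested in wild-type BMDCs and 4 were higher, beside 10.5% of all genes. Among them were *Ccr7* (2.25, SE 0.27), the receptor that guides DCs to lymph nodes, and *Il12b* (4.98, SE 0.25), a cytokine subunit gene that IRF8 can activate. Of the 10, 1 was lower, a count at the background of 9.96% of genes. It was *Mgl2* (-2.60, SE 0.25), a lectin of type 2 DCs associated with *Irf4*. *Il12b* rose by 8.92 (SE 0.28) in *Irf3/7*-/- BMDCs and by 3.10 (SE 0.25) in *Irf1*-/- BMDCs. *Ciita*, the MHC class II master regulator, was lower than in wild-type BMDCs in untreated *Tmem173*-/- (-1.27, SE 0.27) and untreated *Irf1*-/- BMDCs (-1.92, SE 0.29). Against treated wild-type BMDCs (38.5 FPKM) it was called lower in treated *Tmem173*-/- (15.8 FPKM) and treated *Irf1*-/- BMDCs (13.6 FPKM). The libraries labelled treated *Irf3/7*-/- (18.9 FPKM) were called lower too. *Ccl22* was listed at 0 with a failed status in 3 treated conditions and was not tested there.

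The label of the cells was checked against markers. All 7 genes of general DCs, among them *Itgax*, *H2-Ab1* and *Cd74*, reached at least 1 FPKM in every condition, with *Flt3* lowest (1.17 to 2.75 FPKM). *H2-Ab1* and *H2-Aa* were called lower in *Irf1*-/- than in wild-type BMDCs in both states. Untreated values were 278 against 650 and 364 against 1031 FPKM, and treated ones 331 against 890 and 462 against 1424 FPKM. *Ccr7* was called lower in *Tmem173*-/- than in wild-type BMDCs, at 130 against 265 FPKM untreated and 114 against 1257 FPKM treated. Called higher than in treated wild-type BMDCs were *Itgax* in treated *Tmem173*-/- BMDCs and *Flt3* in the libraries labelled treated *Irf3/7*-/-. The genes of type 1 conventional DCs were low, the sum of *Xcr1*, *Clec9a*, *Itgae*, *Cadm1* and *Tlr3* lying between 2.54 and 8.68 FPKM. *Cadm1* did not exceed 0.151 FPKM, *Xcr1* reached 1.12 FPKM, *Clec9a* 4.63 FPKM in untreated *Irf3/7*-/- BMDCs and *Tlr3* 6.77 FPKM in treated wild-type BMDCs. *Xcr1* and *Tlr3* were called higher, and *Itgae* (wild-type and *Irf1*-/-) or *Clec9a* (*Irf3/7*-/-) lower, in the treated BMDCs of these 3 genotypes. Of 5 plasmacytoid DC genes, *Siglech* did not exceed 0.363 FPKM, while the sum lay between 73.7 and 1261 FPKM. *Bst2*, which interferons also induce in other cells, made up most of that sum and was called higher with c-di-GMP in wild-type, *Irf1*-/- and *Irf3/7*-/- BMDCs. Of 5 type 2 conventional DC genes, with which *Irf4* is linked, the sum was 1406 and 392 FPKM in untreated and treated wild-type, 1107 and 1080 FPKM in *Tmem173*-/-, 1758 and 345 FPKM in *Irf1*-/-, and 1227 and 452 FPKM in *Irf3/7*-/- BMDCs. *Mgl2* was the largest part of the sum in wild-type BMDCs (1115 FPKM untreated and 184 FPKM treated), where *Sirpa* went from 104 to 127 FPKM. Treatment lowered 3 of the 4 genes tested in wild-type BMDCs (*Itgam*, *Clec10a* and *Mgl2*), beside 9.96% of genes, and 4 of 5 in *Irf1*-/- BMDCs, beside 7.81%. In *Irf3/7*-/- BMDCs *Clec10a* and *Mgl2* were called lower, and *Itgam* (183 to 95.5 FPKM) was not called. In treated *Tmem173*-/- against treated wild-type BMDCs 4 of 5 were higher (*Itgam*, *Cd209a*, *Clec10a* and *Mgl2*), beside 12.9% of genes.

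Markers of other cells moved with the genotypes. The sum of 5 T cell genes was 45.3 and 32.0 FPKM in untreated and treated wild-type BMDCs, 59.4 and 105 FPKM in *Irf3/7*-/-, 4.06 and 8.33 FPKM in *Irf1*-/-, and 0.819 and 0.869 FPKM in *Tmem173*-/- BMDCs. *Cd3e*, *Cd3g* and *Cd3d* carried the first of these sums with *Lck*, while *Cd4* was at 0.154 FPKM or less in every condition. The sum of 5 NK cell genes was 363 and 336 FPKM in wild-type, 336 and 920 FPKM in *Irf3/7*-/-, 6.99 and 9.11 FPKM in *Irf1*-/-, and 0.0763 and 0.0773 FPKM in *Tmem173*-/- BMDCs. *Gzma* made up most of it in every genotype except *Tmem173*-/-, where it was listed at 0, and *Ncr1* was at most 0.661 FPKM. In wild-type BMDCs *Klrb1c* (1.35 to 0.151 FPKM) and *Eomes* (8.02 to 2.24 FPKM) were called lower with c-di-GMP. Both were called lower in *Irf3/7*-/- BMDCs as well (4.05 to 0.618 and 13.6 to 6.36 FPKM), where *Gzma* and *Prf1* were called higher. The untreated genotypes with low sums were those with low *Irf8* and *Batf2*, and the part of these cells in that difference was not tested. In *Irf1*-/- BMDCs, where *Irf8* and *Batf2* rose with c-di-GMP, the T cell sum went from 4.06 to 8.33 FPKM. *Lck* alone carried that rise (1.26 to 6.16 FPKM, called higher). *Cd3e* went from 0.641 to 0.479 FPKM, *Cd3g* from 1.01 to 0.903, *Cd3d* from 0.993 to 0.645 and *Cd4* from 0.154 to 0.143. The part of T cells in the rise of *Irf8* and *Batf2* was not tested either.

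The *Tmem173*-/- cultures also differed in myeloid markers. The neutrophil sum (5 of 6 genes in the table) was 18763 and 13551 FPKM in *Tmem173*-/- BMDCs against 1372 to 3960 FPKM in the other conditions, and the macrophage sum (6 genes) was 453 and 432 FPKM against 157 to 274 FPKM. *S100a8* and *S100a9* made up most of the neutrophil sum, while *Cxcr2* of that list was called lower in untreated *Tmem173*-/- than in wild-type BMDCs (15.4 against 72.4 FPKM), and *Mertk* of the macrophage list was called lower in treated ones (3.74 against 16.9 FPKM). *Id2* (400 and 411 FPKM) was above its wild-type, *Irf1*-/- and untreated *Irf3/7*-/- values in the same conditions, and *Spi1* (303 and 257 FPKM) was at its highest there. The basophil and mast cell sum (5 genes) was 97.1 and 150 FPKM in *Irf3/7*-/- BMDCs against 37.0 to 57.0 FPKM elsewhere, beside the *Id2* value of 625 FPKM under the treated label, where the T and NK cell sums were highest too. *Gzma* made up most of that NK cell sum (900 FPKM), while *Klrb1c* and *Eomes* were highest in untreated *Irf3/7*-/- BMDCs. The part of any of these cells in the *Id2* and *Spi1* values was not tested. The sum of 4 B cell genes was between 0.276 and 5.77 FPKM.

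**Figure D4:**
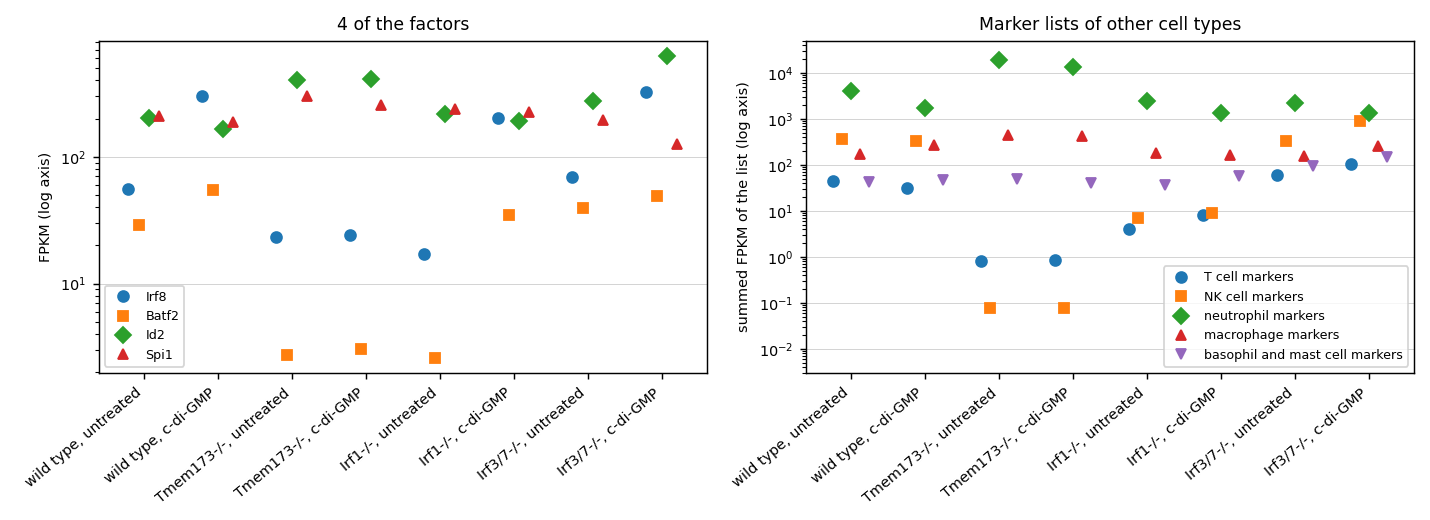
Left, FPKM (log axis) of *Irf8*, *Batf2*, *Id2* and *Spi1* in the 8 conditions. Right, summed FPKM (log axis) of marker lists for T cells, NK cells, neutrophils, macrophages, and basophils and mast cells in the same conditions; the T cell sum is lowest in *Tmem173*-/- (0.819 and 0.869 FPKM) and the neutrophil sum highest there (18763 and 13551 FPKM).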

How the data were processed

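RNA-seq libraries of BMDCs were made with a stranded mRNA kit, and the authors deposited a Cuffdiff gene table with FPKM, interval bounds and a status per condition, normalised by them. The labels name Cuffdiff 1.06 and the build mm9, while the positions in the table matched GRCm38 genes for all 10 factors. The aligner is not given in the labels or methods. The column named for TM173 with the suffix GDP was read as treated *Tmem173*-/-, and 3 value columns of 1 condition matched no label and were not used. FPKM gives no read depth. The 11 comparisons, calls and SE were computed from the deposited FPKM and intervals as described, on the whole table, and the calls were tested on simulated data. The difference between responses was called past 1 log2 unit where its 95% interval left out 0. The members and lists were chosen with earlier results of these data known. Genes named are the members, the genes of fixed lists and, for each member whose extreme conditions differed by over 2-fold, up to 3 genes with the most similar log2 FPKM, all with at least 1 condition of 10 FPKM. The settings varied were the pseudocount (1 or 0.01 FPKM), the minimum (none or 5 FPKM), the threshold (1.5-fold or 4-fold), the scaling (median centring) and the call itself ( fold change alone, or a z from the intervals with Benjamini-Hochberg adjustment). Scripts ran under python 3.11.15 with pandas 2.3.3, numpy 2.4.6, statsmodels 0.14.6 and scipy 1.17.1, and figures were drawn with matplotlib 3.10.9.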

Additional observations from a re-analysis of the deposited data

Results flagged for a closer look

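In 5 cases the c-di-GMP response of a factor differed between a knockout and wild type by more than 1 log2 unit with a 95% interval that left out 0. These were *Irf8* (-2.38) and *Batf3* (-1.39) in *Tmem173*-/-, *Irf8* (1.11) and *Batf2* (2.78) in *Irf1*-/-, and *Id2* (1.45) in *Irf3/7*-/- BMDCs, all as knockout minus wild type. The share of all genes passing in the same direction was 10.9%, 2.55% and 3.8% for these knockouts in turn. The SE come from the authors' intervals, since no replicate values were used, and no p-value is given. The *Id2* value rests on the libraries labelled treated *Irf3/7*-/-, in which *Irf3* was not reduced.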

How the results depend on the processing

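Of 23 calls, 18 in the comparisons and 5 differences between responses, 13 held under every alternative run on them and none changed sign. The 5 differences were run only with pseudocounts of 1 and 0.01 FPKM and with median centring, and all 5 held. The other thresholds, minimums and ways of calling were run on the 18 comparison calls alone. The 13 thus mix calls that faced unlike alternatives. With a 4-fold threshold 10 calls were lost, leaving 1 factor called in the *Irf3/7*-/- response, 2 in treated *Tmem173*-/- against treated wild type, 0 in treated *Irf3/7*-/- against treated wild type, 1 each in untreated *Tmem173*-/- and untreated *Irf1*-/- against untreated wild type, and 0 in treated *Irf1*-/- against treated *Irf3/7*-/-. With a 1.5-fold threshold 7 were gained, giving 2 in the wild-type response, 4 in the *Irf1*-/- response, 1 in treated *Irf1*-/- against treated wild type (*Irf4*) and 4 in untreated *Tmem173*-/- against untreated wild type, and adding *Batf3* (0.95) in treated *Irf1*-/- against treated *Irf3/7*-/-. Median centring, a shift of at most 0.0482 log2 units, left 1 factor called in treated *Irf1*-/- against treated *Irf3/7*-/-, the *Irf4* difference becoming 0.98. Over all genes, the calls as reported and their range over the alternatives were 2291 (592 to 3087) for the wild-type response, 6 (0 to 83) for *Tmem173*-/-, 1952 (589 to 2658) for *Irf1*-/- and 2015 (500 to 2807) for *Irf3/7*-/-. Against wild type they were 2980 (1174 to 3823), 838 (232 to 1177) and 818 (207 to 1192) for treated *Tmem173*-/-, *Irf1*-/- and *Irf3/7*-/- BMDCs, and 1221 (422 to 1612), 527 (176 to 706) and 224 (36 to 350) for the untreated ones. Treated *Irf1*-/- against treated *Irf3/7*-/- gave 1106 (381 to 1535). No paired analysis was possible because the deposited table holds 1 value per condition, and for the same reason no replicate could be left out. FPKM shows no read depth, so the authors' intervals set the limit on what can be seen.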
